A study of Mus musculus with 15 samples.

Results

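The comparison described here set mouse embryonic stem cells (ESCs) grown with 5 mM 2-deoxy-D-glucose (2-DG) for 48 h against mock-treated ESCs, with 3 samples in each group. All samples were C57BL/6 ESCs, and all were kept in a serum medium containing leukemia inhibitory factor (LIF), glutamine and pyruvate, with no feeder layer named in the labels. Total RNA was sequenced, and the expression unit was FPKM (fragments per kilobase of transcript, scaled to the mapped fragments of the library). Of 32152 genes in the table, 13284 reached 1 FPKM in at least 3 of the 15 samples of the series and were tested. The other groups used below were 10 mM 2-DG and 1 nM oligomycin, an ATP synthase inhibitor, each for 48 h. How long the mock samples were cultured is not stated in the labels. Nothing there says that the replicates were separate cultures, so each p-value reflects the spread among the samples at hand, which may be technical.

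2-DG is a glucose analog that hexokinase phosphorylates to a product that glycolysis cannot carry further, and it also resembles mannose, a sugar built into the N-linked glycans of secreted proteins. Proteins that misfold in the endoplasmic reticulum (ER) switch on the unfolded protein response (UPR), which raises ER chaperones and the machinery that removes misfolded proteins. A related pathway, the integrated stress response (ISR), acts through the translation factor eIF2 and the transcription factor ATF4, whose targets include amino acid transporters, amino acid synthesis enzymes and tRNA synthetases.

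At 5 mM, 35.3% of the tested genes passed the test (limma on log2(FPKM + 1), Benjamini-Hochberg adjusted p under 0.05), 1990 higher (15.0%) and 2696 lower (20.3%). These shares are the background for every list count of 5 mM against control below. The excess of lower calls depended on the scaling, with 2226 higher and 2410 lower after median ratio scaling and 2383 higher and 2346 lower after quantile normalization. Changes of at least 1 on the log2 scale were called for 45 genes upward (0.339%) and 79 downward (0.595%). Without a test, all 3 treated samples lay above all 3 controls in 22.4% of the genes and below them in 28.3%. Most of the changes were small. Of the 4686 genes called, 3573 changed by less than 0.5 on the log2 scale, and the median log2 change of all tested genes was -0.02. Pairs of control samples correlated at 0.991 to 0.994 over genes, pairs of 5 mM samples at 0.992 to 0.994, and pairs across the groups at 0.978 to 0.980. Steps between low FPKM values gave a depth, in M reads (mega), of 17.4 to 18.5 for control samples and 17.8 to 18.7 for those at 5 mM. Deviations from the control mean correlated with exon length, at a Spearman rho of 0.36 in control replicate 1 and -0.35 in control replicate 3 over 13275 genes. The log2 change at 5 mM had a rho of 0.123 with exon length, and of the fifth of genes with the shortest exon length 204 were higher and 447 lower, against 459 higher and 383 lower in the fifth with the longest. The part of length in the changes was not tested. Pou5f1, Sox2 and Nanog, the core factors of ESC identity, were present in all 6 samples at 109 to 201 FPKM and passed the test in neither direction, except that Nanog was lower after quantile normalization (log2 -0.17, adjusted p = 0.0332). Genes used as markers of other cell types were present as well. Col1a1 and Fn1 of the fibroblast list stood at 426 ± 7.4 and 468 ± 42 FPKM in the controls (SD, n = 3), and the macrophage marker Lyz2 at 95.1 ± 5.86 FPKM. Fn1 also stands in the list of extracellular matrix and adhesion genes, and 2 of the 22 fibroblast markers had a control mean under 1 FPKM.

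**Figure D1:**
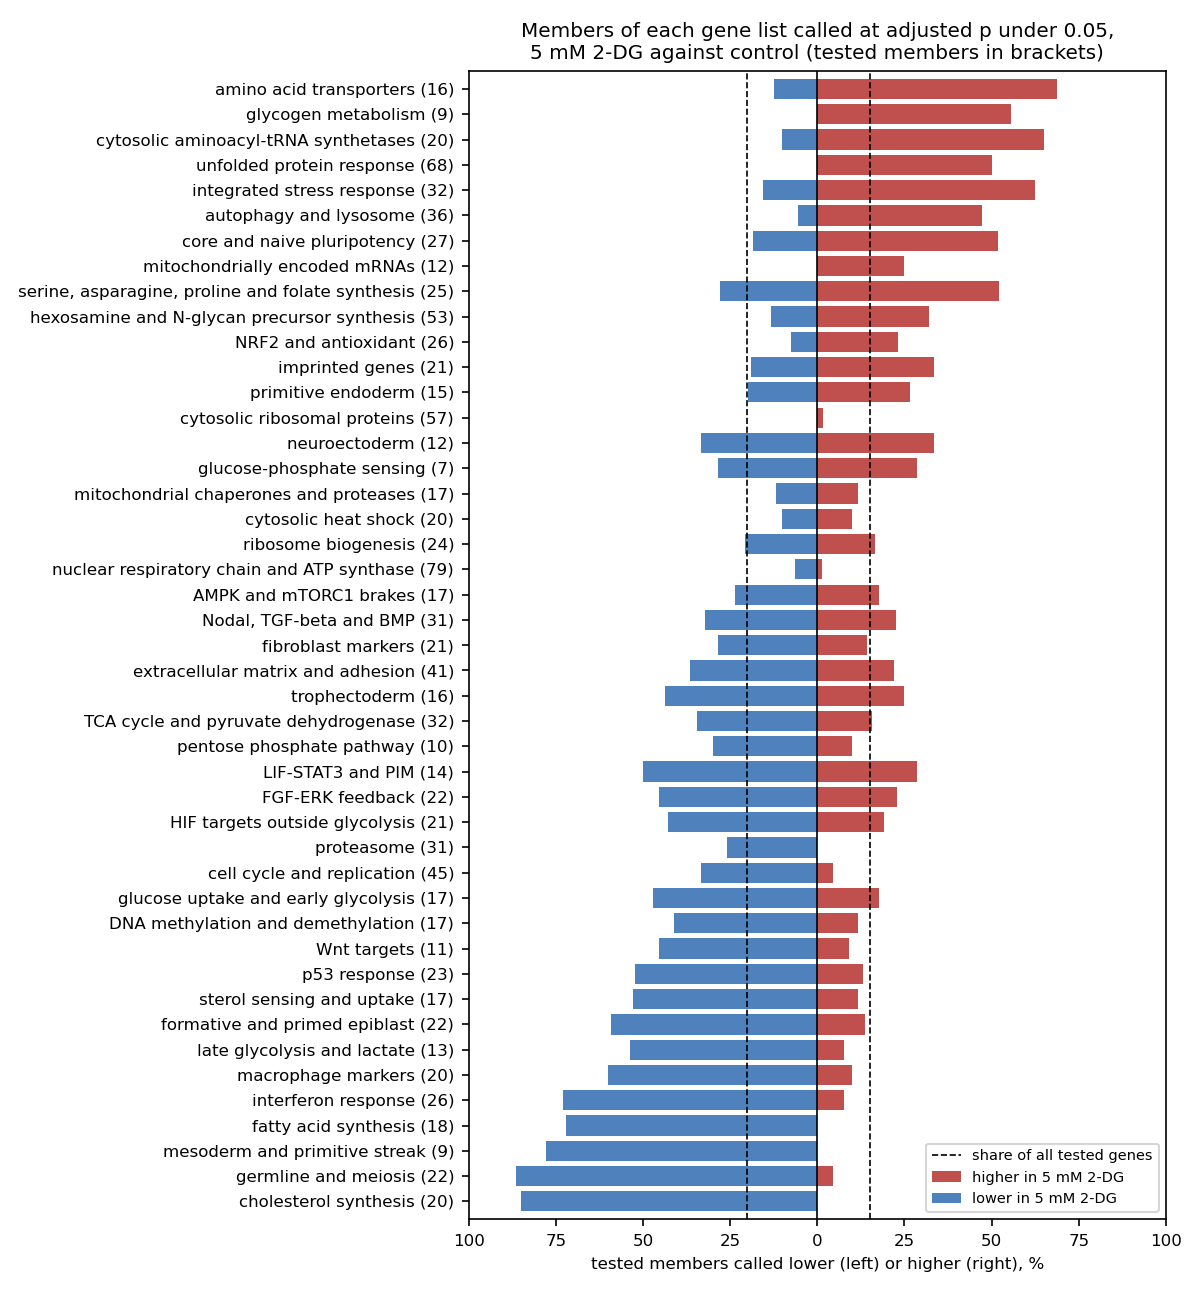
Share of the tested members of each gene list that were higher or lower at 5 mM 2-DG than in control, with the share over all tested genes as the reference. The cholesterol synthesis bar extends to the lower side alone (17 of 20 genes) and the unfolded protein response bar to the higher side alone (34 of 68).

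Many genes of the UPR rose, and no tested member passed as lower. Of 68 tested members, 34 were higher and 0 lower, and their median log2 change was 0.18. Among ER chaperones and co-chaperones, 11 of 14 were higher (median 0.62), followed by 9 of 16 genes of ER-associated degradation (0.27) and 7 of 11 disulfide isomerases and oxidases (0.24). Of 18 secretory traffic genes, which include the Sec61 channel and signal peptidase subunits, 4 were higher (median 0.05), or 2 without control replicate 1 or 3 or without 5 mM replicate 1 or 2.

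Part of this group carried an ER stress element in its promoter, a bipartite motif bound by ATF6 together with NF-Y. Windows around the motif are shown for 7 genes that rose, because the element is rare and the genes holding it moved in 1 direction with few exceptions. Capitals mark the match to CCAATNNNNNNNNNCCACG or to its reverse complement, and each window is written 5′ to 3′ on the strand of its gene.
Hspa5: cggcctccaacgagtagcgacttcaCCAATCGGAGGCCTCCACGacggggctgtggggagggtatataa
Hsp90b1: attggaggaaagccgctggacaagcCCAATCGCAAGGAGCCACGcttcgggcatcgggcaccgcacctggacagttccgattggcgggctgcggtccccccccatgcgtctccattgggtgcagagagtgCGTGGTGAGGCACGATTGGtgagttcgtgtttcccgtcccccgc
Calr: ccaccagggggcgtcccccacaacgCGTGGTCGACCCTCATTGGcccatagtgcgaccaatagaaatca
Creld2: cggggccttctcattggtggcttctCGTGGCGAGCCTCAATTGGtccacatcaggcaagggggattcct
Pdia6: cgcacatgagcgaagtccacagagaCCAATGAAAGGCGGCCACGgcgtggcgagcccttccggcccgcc
Dnajc3: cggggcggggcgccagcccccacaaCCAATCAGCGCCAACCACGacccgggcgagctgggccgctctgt
Syvn1: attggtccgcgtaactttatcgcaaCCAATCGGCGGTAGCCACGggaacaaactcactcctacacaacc
On GRCm38.p6 the windows lie at chr2:34772000-34772068 (plus strand), chr10:86705508-86705681 (minus strand), chr8:84847050-84847118 (minus strand), chr15:88819495-88819563 (plus strand), chr12:17266466-17266534 (plus strand), chr14:118937802-118937870 (plus strand) and chr19:6046507-6046575 (plus strand). The sequences are from the RefSeq promoter table, which spans 250 bases before to 50 bases after each annotated start and held a promoter for 9378 of the tested genes. The shares below are over these genes only. Both strands were searched, and the left arm of the element is a CCAAT box, a motif present in 43.3% of the promoters.

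The full element occurred in 16 of 9378 promoters (0.171%). Of these 16 genes, 13 were higher at 5 mM, 1 was lower (Acacb, a fatty acid synthesis enzyme) and the other 2 passed in neither direction. Within the UPR list the element was in 9 of 52 promoters (17.3%), and all 9 of these genes were among the members that rose. Hsp90b1 held 2 matches on opposite strands. A match is a description of the letters and was not tested as a binding site.

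Hspa5, the chaperone BiP that holds the UPR sensors inactive in unstressed cells, read 214, 219 and 207 FPKM in the controls and 390, 422 and 401 FPKM at 5 mM. Every treated sample lay above every control. The fold was 1.89, with a log2 change of 0.92 ± 0.07 (SE) and an adjusted p of 3.8e-07. Hsp90b1, the ER form of HSP90, went from 142, 137 and 126 FPKM to 228, 249 and 225 FPKM, a log2 change of 0.79 ± 0.08. Calr, the lectin chaperone calreticulin that binds N-glycans, went from 332, 336 and 344 FPKM to 572, 556 and 582 FPKM, a log2 change of 0.76 ± 0.05. Neither pair of groups overlapped. Dnajc3, an inhibitor of the eIF2 kinase PERK, went from 14.5, 13.5 and 12.6 FPKM to 27.2, 25.9 and 25.02 FPKM, and Syvn1, the ER ubiquitin ligase HRD1, from 10.3, 10.2 and 10.1 FPKM to 16.4, 15.1 and 17.3 FPKM. Sel1l, the partner of HRD1, rose by 0.70 ± 0.08 on the log2 scale.

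The largest UPR changes were in genes for which the search found no full element. Of the 34 UPR members that rose, 30 had a promoter to search. Herpud1, a component of ER-associated degradation, rose 2.83 times (log2 change 1.43 ± 0.07), and Pdia4, a disulfide isomerase, 1.98 times (0.98 ± 0.06). Neither named sensor passed the test. Ern1, which encodes the sensor IRE1α, had a log2 difference of -0.10 ± 0.12 (adjusted p = 0.55) and Atf6 one of 0.20 ± 0.11 (adjusted p = 0.18). Xbp1, the transcription factor whose mRNA IRE1α splices, rose from 18.7 ± 1.05 to 23.8 ± 0.782 FPKM (adjusted p = 0.00034). FPKM per gene does not separate its spliced from its unspliced form.

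**Figure D2:**
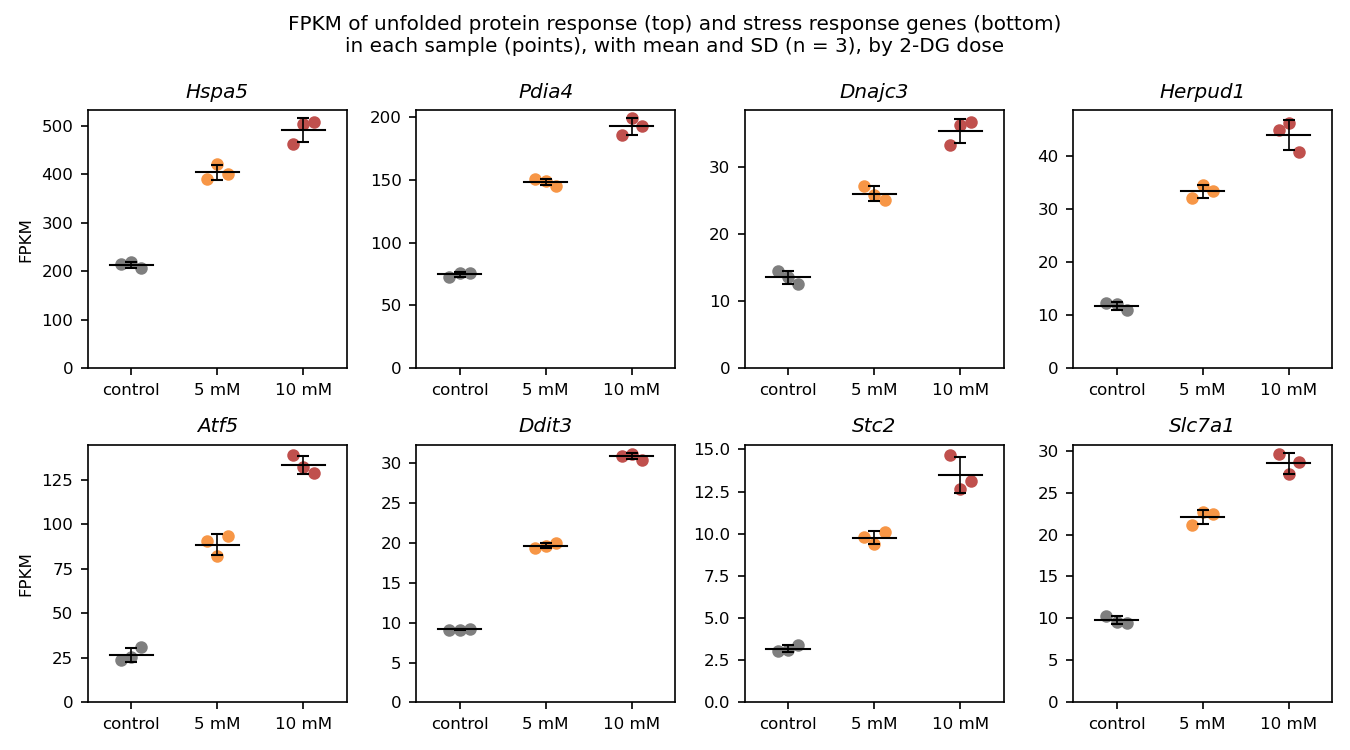
FPKM of 8 stress response genes in each control, 5 mM and 10 mM 2-DG sample (points) with the group mean (line). In each panel the 5 mM samples lie above all controls; Hspa5, for example, reads 207 to 219 FPKM in the controls and 390 to 422 FPKM at 5 mM.

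In the ISR, all tested transcription factors rose, some of them ATF4 targets themselves, while the effectors were mixed. Of 32 tested members, 20 were higher and 5 lower (median log2 change 0.34). All 8 tested transcription factors, of 9 in the list, were higher, with a median of 0.76. Of 17 effectors, 10 were higher and 4 lower. Atf4, the central factor, read 169, 178 and 188 FPKM in the controls and 310, 308 and 302 FPKM at 5 mM. Its target Ddit3, which encodes the pro-apoptotic factor CHOP, read 9.14, 9.11 and 9.24 FPKM and then 19.4, 19.6 and 19.99 FPKM. The groups were apart for both genes, and the log2 changes were 0.78 ± 0.07 and 1.02 ± 0.07. Atf5, a further ATF4 target, rose most of the list (3.31 times), and its gene overlaps Nup62 on the other strand, which rose by 0.20 on the log2 scale. Whether the counting used strand is not given in the sources used here, so reads of overlapping genes cannot be told apart. Of the 276 genes named by rule, 38 overlap another tested gene. Among them is Ddit3, which overlaps Mars on the other strand (log2 change 0.26, called higher). Slc2a1, Pfkp, Loxl3 and Irf7 are others.

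Several ATF4 effectors rose clearly. Chac1, an enzyme that degrades glutathione, went from 14.3, 14.2 and 15.3 FPKM to 27.7, 27.1 and 30.0 FPKM. Stc2, a secreted glycoprotein, went from 3.03, 3.09 and 3.42 FPKM to 9.82, 9.39 and 10.1 FPKM. Gdf15, a stress cytokine, rose 1.98 times (log2 change 0.84 ± 0.10). Other members fell in the same samples. Ddit4, an inhibitor of mTORC1 that also responds to hypoxia and p53, read 48.2, 51.9 and 56.0 FPKM in the controls and 27.0, 28.3 and 28.1 FPKM at 5 mM (log2 change -0.88 ± 0.10, adjusted p = 2.3e-05). Bbc3, which encodes the pro-apoptotic protein PUMA, changed by -0.67 ± 0.14 (adjusted p = 0.0023). Fgf21 had 0.41 FPKM in the controls and 0.576 at 5 mM, with an adjusted p of 0.43.

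The C/EBP-ATF element TGATGNAA, to which ATF4 binds with C/EBP partners, was searched in the same way. It was present in 255 of 9378 promoters (2.72%), in 7 of 29 ISR promoters (24.1%) and in 5 of 12 promoters of cytosolic tRNA synthetases (41.7%), namely Aars, Gars, Iars, Tars and Yars. Windows are shown for 6 genes that rose, since they place the element beside its neighbours in genes of different functions; capitals again mark the match on either strand.
Atf3: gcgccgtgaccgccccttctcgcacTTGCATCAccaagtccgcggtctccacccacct
Nupr1: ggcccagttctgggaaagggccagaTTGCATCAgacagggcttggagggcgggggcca
Jdp2: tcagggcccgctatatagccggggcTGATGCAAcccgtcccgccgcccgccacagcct
Chac1: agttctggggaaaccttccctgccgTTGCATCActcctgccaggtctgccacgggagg
Slc7a11: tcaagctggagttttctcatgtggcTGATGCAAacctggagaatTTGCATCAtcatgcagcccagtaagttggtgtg
Asns: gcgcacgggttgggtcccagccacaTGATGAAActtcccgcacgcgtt
They lie at chr1:191183411-191183468 (minus strand), chr7:126625548-126625605 (minus strand), chr12:85599358-85599415 (plus strand), chr2:119351024-119351081 (plus strand), chr3:50443628-50443704 (minus strand) and chr6:7693210-7693257 (minus strand) of GRCm38.p6. Slc7a11 held 2 matches.

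Genes that import, make and charge amino acids rose in larger shares than the 15.0% of all genes. Among amino acid transporters 11 of 16 were higher and 2 lower (median 0.49). Slc7a11, the cystine importer, went from 1.07, 0.816 and 0.778 FPKM to 2.64, 2.25 and 2.49 FPKM, so that the groups were apart at a low level. Slc38a7, a glutamine transporter of lysosomes, rose 2.11 times and Slc1a4, a neutral amino acid exchanger, 1.86 times. Of 20 cytosolic tRNA synthetases 13 were higher and 2 lower, with the largest change in Sars (log2 0.55 ± 0.07).

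Amino acid and one-carbon synthesis split into enzymes that rose and enzymes that fell. Of 25 members, 13 were higher and 7 lower. Asns, asparagine synthetase, read 134, 140 and 146 FPKM in the controls and 231, 256 and 236 FPKM at 5 mM. Psat1, in serine synthesis, read 108, 108 and 110 FPKM and then 184, 197 and 179 FPKM. Cbs, which commits homocysteine to cysteine synthesis, moved the other way, from 7.83, 7.43 and 7.73 FPKM to 2.76, 3.22 and 2.56 FPKM. None of these groups overlapped, and the log2 changes were 0.78 ± 0.06, 0.78 ± 0.05 and -1.18 ± 0.07. The mitochondrial one-carbon enzymes Shmt2, Mthfd2 and Aldh1l2 rose by 0.72 ± 0.05, 0.67 ± 0.06 and 0.78 ± 0.14.

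The pathway that 2-DG enters was lower at several steps. Of 17 genes from glucose uptake to aldolase and the regulators of flux, 8 were lower and 3 higher, and of 13 from triose phosphates to lactate, 7 were lower and 1 higher. Glucose transporter gene Slc2a1 read 118, 120 and 130 FPKM in the controls and 74.0, 75.9 and 76.6 FPKM at 5 mM. Ldha, lactate dehydrogenase A, read 365, 374 and 404 FPKM and then 237, 243 and 234 FPKM. Slc16a3, the lactate exporter MCT4, went from 18.0, 21.0 and 22.6 FPKM to 11.1, 10.4 and 10.6 FPKM. In each of these genes the treated samples lay below all controls. The log2 changes were -0.69 ± 0.05, -0.67 ± 0.06 and -0.87 ± 0.08.

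Of the hexokinase genes, Hk2 fell from 35.1 ± 1.47 to 28.1 ± 1.14 FPKM. Hk1 read 8.95 ± 0.277 FPKM in the controls and 8.61 ± 0.268 FPKM at 5 mM (adjusted p = 0.43). Other genes of the pathway went against the trend. Pfkp, 1 of the phosphofructokinase genes, rose from 7.72, 7.81 and 6.89 FPKM to 10.2, 9.71 and 10.7 FPKM, whereas Pfkl and Pfkm fell by 0.56 and 0.44 on the log2 scale. Among the regulators of flux, Pfkfb3 and Tigar, which act in opposite directions on fructose 2,6-bisphosphate, both rose (log2 0.26 ± 0.06 and 0.38 ± 0.05). Gapdh was higher at the edge of the test (log2 0.33 ± 0.12, adjusted p = 0.049). That call was lost under several alternatives, among them the removal of any of 5 of the 6 libraries, with an adjusted p of up to 0.203.

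Genes that hypoxia-inducible factor (HIF) controls outside glycolysis were likewise lower more often than higher, 9 against 4 of 21. Pdk1, the kinase that closes pyruvate dehydrogenase, read 21.9, 21.1 and 21.0 FPKM in the controls and 10.4, 11.3 and 10.8 FPKM at 5 mM. Bnip3, a mitophagy receptor, stood at 8.02, 7.20 and 8.37 FPKM against 15.3, 16.5 and 15.1 FPKM in the controls. Kdm3a, a histone demethylase, rose by 0.52 ± 0.06, against the direction of the other named members.

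Targets of the glucose-phosphate sensors moved in different directions. Of 7 tested genes of this list, sensors included, 2 were higher and 2 lower (lower calls were 1 to 3 under the alternatives). Over all tested genes 15.0% were higher and 20.3% lower. The transcription factor complex of MondoA or ChREBP with Mlx responds to glucose 6-phosphate and to 2-DG 6-phosphate, and Txnip and Arrdc4, both of the arrestin family, are its textbook targets. Arrdc4 read 12.6, 13.0 and 11.6 FPKM in the controls and 27.7, 26.4 and 26.8 FPKM at 5 mM, with no overlap (log2 change 1.06 ± 0.05, adjusted p = 7.2e-09). Txnip read 46.9, 45.3 and 44.5 FPKM and then 44.4, 41.9 and 42.1 FPKM, a log2 difference of -0.09 ± 0.07 (adjusted p = 0.39). Arrdc2 and Arrdc3, also listed as targets, changed by -0.58 ± 0.08 and -0.20 ± 0.06. The difference between the changes of Arrdc4 and Txnip was not tested.

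Glycogen genes rose modestly, 5 of 9 with 0 lower (3 without a filter on low values, without control replicate 2 or 3 and without 5 mM replicate 1, where 1 was lower), led by Gys1, the glycogen synthase of most tissues outside liver, which went from 17.3 ± 0.365 to 23.8 ± 1.12 FPKM. In the pentose phosphate pathway 1 of 10 was higher (Pgd, log2 0.33 ± 0.04) and 3 lower, led by the phosphoribosyl pyrophosphate synthetase gene Prps2 (-0.69 ± 0.05). Over all tested genes 15.0% were higher and 20.3% lower.

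**Figure D3:**
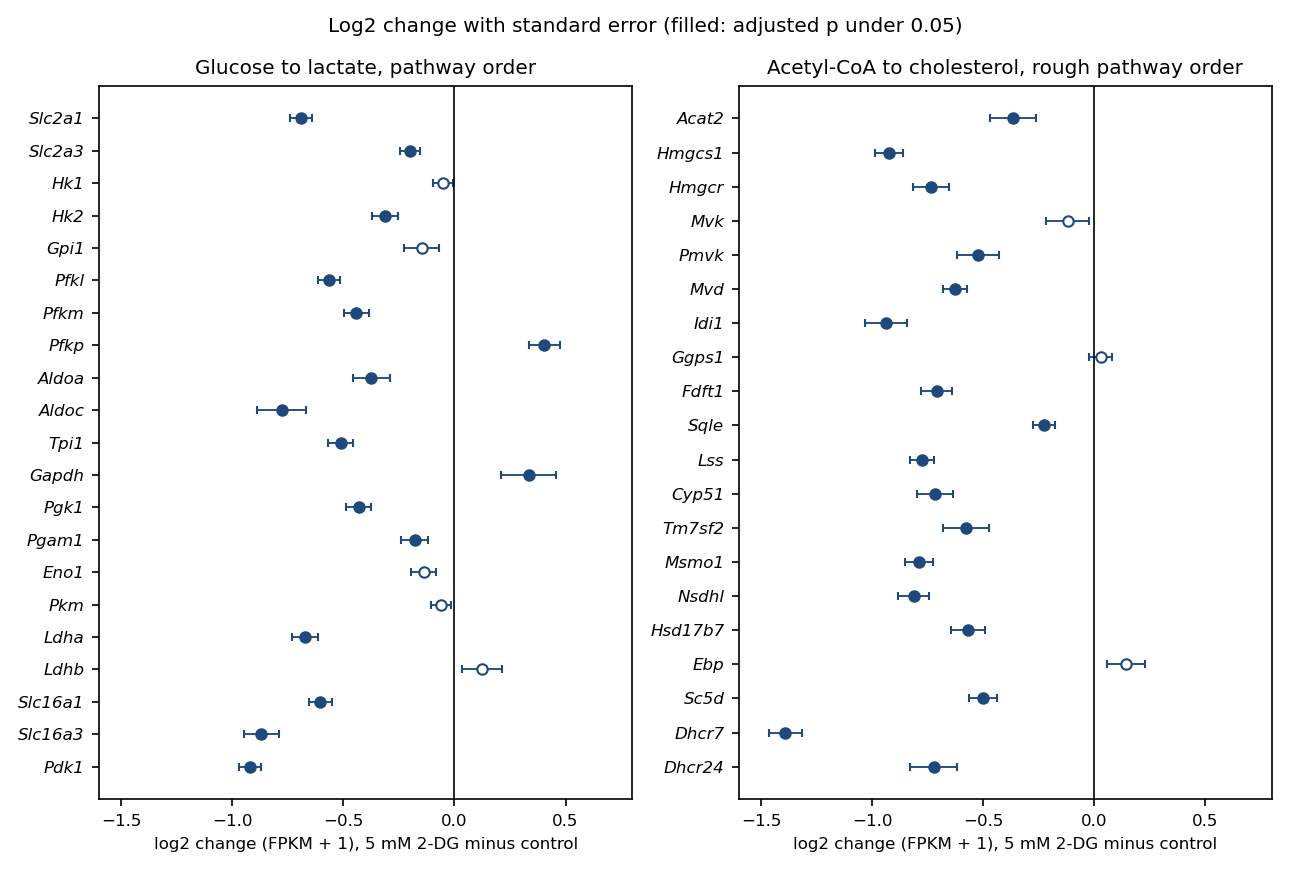
Log2 change with its SE for genes of glycolysis and of cholesterol synthesis, ordered roughly by pathway, at 5 mM 2-DG against control. In glycolysis Pfkp and Gapdh lie above 0 among mostly negative values, whereas in cholesterol synthesis 17 of 20 genes passed the test below 0.

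N-glycan and hexosamine genes, which supply the glycosylation that 2-DG is known to disturb, changed at selected steps. Of 53 members 17 were higher and 7 lower (median 0.06), with 4 lower without the filter and without control replicate 3 or 5 mM replicate 2 or 3. Pmm2, phosphomannomutase 2, which makes mannose 1-phosphate for GDP-mannose, read 4.72, 4.85 and 4.81 FPKM in the controls and 9.96, 9.78 and 8.90 FPKM at 5 mM. It was the only called rise among 7 genes of mannose activation. Ogt, which attaches GlcNAc to proteins of the nucleus and cytosol, read 26.1, 25.7 and 20.4 FPKM and then 39.2, 40.2 and 40.9 FPKM. Treated samples lay above all controls for both, with log2 changes of 0.86 ± 0.08 and 0.72 ± 0.09. Gfpt1, the entry enzyme of the hexosamine pathway and a known XBP1 target, differed by 0.17 ± 0.06 (adjusted p = 0.053). Among the transferase complex and the trimming enzymes 8 of 18 were higher and 1 lower (0 when any library but control replicate 1 was left out), and the genes that build the lipid-linked sugar chain moved both ways, with 6 of 19 higher and 4 lower (2 without 5 mM replicate 2).

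Cholesterol synthesis was lower at nearly every step. Of 20 tested genes 17 were lower and 0 higher (1 higher without control replicate 3), with a median log2 change of -0.67. The fall covered 9 of 11 genes from mevalonate to lanosterol and 8 of 9 from lanosterol to cholesterol. Hmgcs1, which makes the precursor of mevalonate, read 47.4, 49.7 and 45.0 FPKM in the controls and 24.1, 23.8 and 25.5 FPKM at 5 mM. Dhcr7, the last step of the Kandutsch-Russell branch, read 11.6, 13.2 and 14.5 FPKM and then 4.12, 4.44 and 4.51 FPKM. Treated samples were below all controls for both, with log2 changes of -0.93 ± 0.06 and -1.39 ± 0.07. Mvk, Ggps1 and Ebp passed in neither direction, with log2 differences of -0.12, 0.03 and 0.14; these 3 genes are named because they are the whole remainder of the list.

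Of 17 genes of sterol sensing and uptake 9 were lower and 2 higher, with 4 higher after quantile normalization and 1 without control replicate 2 or 5 mM replicate 1 or 2. Srebf2, the sterol-responsive transcription factor, went from 60.6, 59.4 and 63.5 FPKM to 37.7, 35.9 and 39.8 FPKM, and Insig1, its ER anchor and target, from 31.7, 33.0 and 30.9 FPKM to 13.4, 14.4 and 13.4 FPKM. The higher genes were Npc1, which releases cholesterol from lysosomes (0.37 ± 0.09), and Insig2, the other INSIG anchor (0.17 ± 0.05). In fatty acid synthesis 13 of 18 were lower and 0 higher, led by the desaturase genes Scd2 (125 ± 5.93 to 69.7 ± 2.13 FPKM) and Scd1 (25.6 ± 1.65 to 14.2 ± 0.246 FPKM), which are close paralogs.

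A sterol element, TCACNCCAC, was in 132 of 9378 promoters (1.41%) and in 1 of 16 promoters of cholesterol synthesis genes, that of Hmgcs1. Its window, with the match in capitals, lies at chr13:119690189-119690247 (plus strand) of GRCm38.p6.
Hmgcs1: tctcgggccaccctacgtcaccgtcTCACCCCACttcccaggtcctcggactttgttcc
The shorter CCAAT box was in 15 of these 16 promoters (93.8%), against 43.3% of all. NF-Y binds CCAAT boxes and is known as a partner of the sterol-responsive factors; binding was not measured.

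ESC state genes moved in opposite directions within single lists. Of 27 core and naive pluripotency genes 14 were higher and 5 lower, or 3 lower without 5 mM replicate 3. Klf2, a naive-state transcription factor, read 43.9, 45.3 and 62.5 FPKM in the controls and 106, 90.1 and 102 FPKM at 5 mM. Nr0b1, which encodes the nuclear receptor DAX1, read 38.5, 41.6 and 41.9 FPKM and then 82.4, 77.7 and 78.1 FPKM. Tdgf1, the Nodal co-receptor CRIPTO, read 360, 370 and 369 FPKM and then 171, 184 and 166 FPKM. The groups were apart in all of these genes, with log2 changes of 0.98 ± 0.14, 0.95 ± 0.06 and -1.07 ± 0.06. Tcl1, Tbx3 and Prdm14 also rose, by 0.88 ± 0.12, 0.63 ± 0.06 and 0.48 ± 0.08, and Gbx2 changed by -0.97 ± 0.12.

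Formative genes, which mark the step from naive cells towards the epiblast of the implanting embryo, fell in 13 of 22 cases and rose in 3. Pou3f1, an epiblast and neural POU factor, read 8.98, 9.33 and 10.4 FPKM in the controls and 3.68, 3.51 and 3.77 FPKM at 5 mM. Lefty1, an antagonist of Nodal, read 167, 185 and 208 FPKM and then 89.5, 87.8 and 93.0 FPKM. The de novo DNA methyltransferase gene Dnmt3b read 92.3, 92.4 and 93.3 FPKM and then 48.6, 52.3 and 50.2 FPKM. In each, the treated samples lay below all controls. Dnmt3a changed by -1.03 ± 0.06, whereas Dnmt1, the maintenance enzyme, differed by 0.06 ± 0.04 (adjusted p = 0.34).

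Otx2 and Foxd3 of the formative list rose against that direction. Otx2, a factor of the formative transition, read 1.23, 1.02 and 1.55 FPKM in the controls and 3.86, 4.15 and 4.50 FPKM at 5 mM. Foxd3, a forkhead factor of pluripotent cells, read 4.15, 3.73 and 5.28 FPKM and then 10.5, 8.76 and 10.1 FPKM. Both sets of treated samples were above all controls (log2 changes 1.19 ± 0.09 and 1.01 ± 0.10, adjusted p = 3.1e-07 and 7.1e-06).

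Mesoderm and germline genes that were called were mostly lower, whereas neuroectoderm and primitive endoderm genes went both ways. Of 21 mesoderm and primitive streak genes, 9 reached the filter on low values, 7 of them lower, against 11 without a filter; several passed it through the controls and the other groups, so this count is a description only. Wnt8a, a Wnt ligand of the streak, read 4.10, 4.42 and 4.60 FPKM in the controls and 0.547, 0.439 and 0.398 FPKM at 5 mM (log2 change -1.88 ± 0.13). Of 30 germline genes 22 reached the filter, with 19 lower and 1 higher. Under a filter of 5 FPKM 6 were lower. Here and in the lists below, that filter also takes members out of the test. Germline genes too may have passed the lower filter through the controls, where 7 had a mean under 1 FPKM, so their count is a description only. Among the lower genes was the meiotic cohesin gene Rec8 (6.21, 6.19 and 6.28 FPKM, then 3.15, 2.89 and 3.28 FPKM). In neuroectoderm 4 of 12 were higher (2 under the filter of 5 FPKM) and 4 lower, and the neuronal tubulin gene Tubb3 rose by 0.53 ± 0.07. In primitive endoderm 4 of 15 were higher and 3 lower (1 under that filter). Sox7, a factor of primitive endoderm and endothelium, rose from 0.444, 1.00 and 0.591 FPKM to 1.96, 2.52 and 2.38 FPKM. Of the two-cell-like genes 1 of 14 was tested, and it was not called. In bulk RNA, fewer cells of a type and less RNA per cell cannot be told apart.

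**Figure D4:**
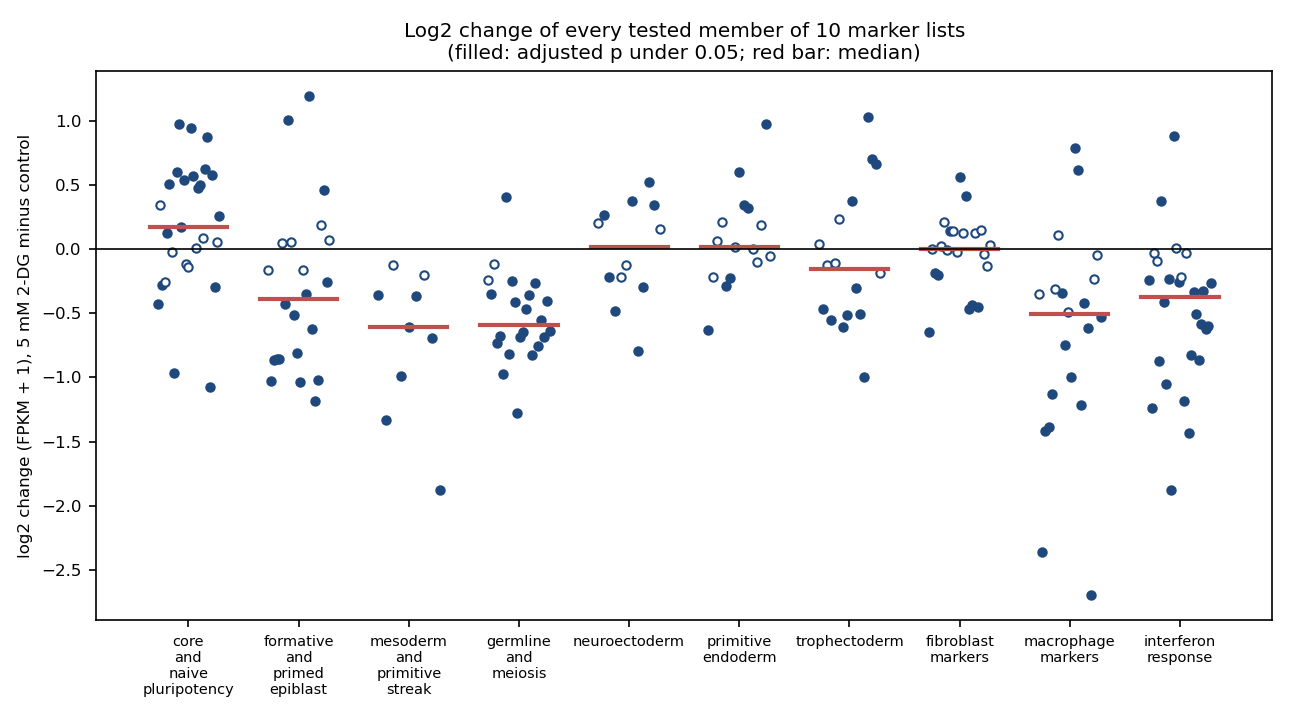
Log2 change at 5 mM 2-DG against control of every tested gene in 10 lists of cell state and cell type markers. Each point is a gene, coloured by whether it passed the test, and pluripotency genes lie on both sides of 0 while germline and interferon genes lie mostly below it.

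Target genes of several signalling pathways changed. Pim1, a kinase gene that STAT3 induces, read 68.6, 72.2 and 76.4 FPKM in the controls and 22.5, 22.4 and 22.8 FPKM at 5 mM. Socs3, the STAT3-induced feedback inhibitor, read 29.4, 30.2 and 31.4 FPKM and then 17.5, 15.4 and 15.9 FPKM, while Stat3 itself rose by 0.40 ± 0.06 on the log2 scale. Pim1 and Socs3 had no overlap between the groups, with log2 changes of -1.64 ± 0.06 and -0.86 ± 0.06. Of 14 LIF and PIM genes 7 were lower and 4 higher (2 without 5 mM replicate 1). In the FGF-ERK list 10 of 22 were lower and 5 higher (3 without control replicate 3 or 5 mM replicate 1 or 3): Dusp6, an ERK phosphatase induced by ERK, changed by -0.86 ± 0.06 and Etv4 by -0.85 ± 0.07, but Dusp4 and Fos, also ERK targets, rose by 0.64 ± 0.11 and 0.55 ± 0.05. Among Wnt targets 5 of 11 were lower (1 under the filter of 5 FPKM), led by Cdx1 (-1.33 ± 0.10) and Tcf7 (-0.94 ± 0.06), and 1 was higher, the Wnt-inactivating enzyme gene Notum (0.61 ± 0.09).

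Replication licensing genes were lower in 10 of 16 cases and higher in 0, at a median of -0.24, and mitosis genes were lower in 1 of 12 and higher in 1 (2 and 0 without control replicate 3 or 5 mM replicate 2). Ccne1, the cyclin that drives entry into S phase, went from 78.7, 81.3 and 87.7 FPKM to 51.4, 52.4 and 53.4 FPKM, with no overlap (log2 change -0.65 ± 0.06). Of 23 p53 targets 12 were lower and 3 higher. Pmaip1, which encodes the pro-apoptotic protein NOXA, read 78.0, 78.4 and 72.0 FPKM in the controls and 29.4, 32.8 and 30.7 FPKM at 5 mM, again apart (-1.27 ± 0.07). Cdkn1a, which encodes p21, stood at 115 ± 2.89 and 104 ± 3.58 FPKM, at the threshold (log2 change -0.15 ± 0.06, adjusted p = 0.0499), and no longer passed when any library was left out (adjusted p up to 0.16).

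Lysosomal genes rose in 11 of 19 cases with 0 lower (1 without 5 mM replicate 2), and autophagy genes in 6 of 17 with 2 lower (1 without control replicate 1 or 2 or 5 mM replicate 2). Lamp1, a lysosomal membrane protein, went from 121, 124 and 133 FPKM to 181, 177 and 184 FPKM. Tfe3, a transcription factor of lysosomal genes, rose by 0.24 ± 0.04, and its relative Tfeb differed by 0.04 ± 0.07 (adjusted p = 0.72). Flcn, which acts on the location of both factors, rose 1.56 times. Few genes of the respiratory chain passed: over 79 nuclear genes of respiration and ATP synthesis 1 was higher (Atp5b, log2 0.22 ± 0.05) and 5 were lower. The lower calls were 3 when any control was left out and 2 without 5 mM replicate 3, and 8 with only the compared groups in the fit. Of 57 ribosomal protein genes 1 was higher, Rpl30 (0.22 ± 0.07), and that call was lost when any of 5 of the 6 libraries was left out.

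The largest rises and falls brought in genes of other functions. Ptx3, a secreted pattern recognition protein, had the largest rise on the log2(FPKM + 1) scale, from 4.36, 3.90 and 4.90 FPKM to 20.2, 22.7 and 21.4 FPKM, with all treated samples above the controls (4.89 times, log2 change 2.06 ± 0.10). Sox21, a SOX family repressor, read 0.913, 1.21 and 1.21 FPKM and then 7.25, 6.39 and 6.35 FPKM, also apart (log2 1.86 ± 0.08, and 6.01 times, the larger fold of the 2 genes). Among the 15 largest rises were the secreted proteases Adamts5 and Adamts1 (3.94 and 2.70 times), the laminin gene Lamb2 (3.44 times) and the keratin gene Krt42 (4.10 times). Ly6c1 rose 4.39 times, and its near copies could share reads with it. Mir186, a short hairpin gene inside Zranb2, had the widest error of these (log2 1.47 ± 0.23), and its reads cannot be told apart from those of Zranb2, which did not pass the test (log2 difference -0.07). Ttc17 rose 3.41 times; it overlaps 2810002D19Rik on the other strand, which was lower, and the pseudogene Itpa-ps1.

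Phlda2, an imprinted gene that limits placental growth and lies at chr7:143501545-143503150 (minus strand, GRCm38), read 44.5, 47.9 and 53.2 FPKM in the controls and 14.8, 14.6 and 14.1 FPKM at 5 mM. The treated samples lay far below the controls (log2 change -1.67 ± 0.11, adjusted p = 1.9e-07). The imprinted list, Phlda2 included, went both ways. It had 7 of 21 higher and 4 lower, against 15.0% and 20.3% of all tested genes. Cdkn1c, a neighbour of Phlda2 that is also expressed from the maternal copy, changed by -0.79 ± 0.14 and Peg10 fell from 64.8 ± 2.24 to 32.0 ± 0.205 FPKM, while H19 and Dlk1 rose by 0.48 ± 0.05 and 0.53 ± 0.08. Loxl3, a lysyl oxidase of matrix crosslinking, went from 22.2, 21.5 and 22.2 FPKM to 6.71, 6.46 and 6.80 FPKM.

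Among the 15 largest falls were Pf4, C1qa and C1qb of the macrophage list and Ifit3 and Isg15 of the interferon list. C1qa, a complement subunit made by macrophages, read 14.5, 13.0 and 16.3 FPKM in the controls and 2.38, 1.68 and 2.05 FPKM at 5 mM. Lyz2, macrophage lysozyme, read 99.5, 88.5 and 97.4 FPKM and then 40.3, 40.9 and 39.8 FPKM. The groups were apart for both, with log2 changes of -2.36 ± 0.13 and -1.22 ± 0.10. Of 26 macrophage markers 20 were tested, 12 were lower (8 under the filter of 5 FPKM) and 2 higher, and the summed level of the list was 209 to 234 FPKM in the controls and 134 to 138 FPKM at 5 mM. None of the 26 was at 0 in all 6 samples, but 8 had a control mean under 1 FPKM. Ptprc, which encodes the pan-leukocyte protein CD45, stood at 0.168 FPKM in the controls and 0.149 at 5 mM, below the filter. Laptm5 and Lgals3 of the same list rose by 0.79 ± 0.06 and 0.62 ± 0.13, and the pan-macrophage marker Cd68 read 11.7 and 12.7 FPKM (adjusted p = 0.26). The part of macrophages in these falls was not tested.

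Interferon-induced genes fell in 19 of 26 tested cases (12 under the filter of 5 FPKM), of 29 in the list, and rose in 2 (1 without a filter, without control replicate 1 or without 5 mM replicate 3). Isg15, a ubiquitin-like modifier, read 45.6, 48.6 and 49.8 FPKM in the controls and 15.1, 17.1 and 19.6 FPKM at 5 mM. Bst2, the antiviral tether, read 93.1, 95.9 and 102 FPKM and then 38.9, 40.3 and 42.2 FPKM. Ifit3 read 8.51, 8.65 and 10.2 FPKM and then 1.80, 1.91 and 1.53 FPKM. All treated samples were below all controls, and the log2 changes were -1.43 ± 0.12, -1.24 ± 0.12 and -1.88 ± 0.08. Ifitm1, which is also an ESC and germ cell gene, rose from 46.5, 47.5 and 52.1 FPKM to 89.4, 93.2 and 89.5 FPKM. Macrophages express many of these genes as well, and the lists' part in each other's change was not tested.

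The interferon-stimulated response element, searched as GAAANNGAAA on both strands, was in 335 of 9378 promoters (3.57%), in 12 of 23 of the interferon list (52.2%) and in 10 of the 17 members that fell and had a promoter. Windows are shown for 4 of the genes that fell; capitals mark the matches, which overlap where they run on.
Isg15: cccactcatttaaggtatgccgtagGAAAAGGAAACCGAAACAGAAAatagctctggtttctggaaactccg
Ifit3: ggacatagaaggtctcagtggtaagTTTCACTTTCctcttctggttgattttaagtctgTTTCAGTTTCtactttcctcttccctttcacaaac
Ifit1: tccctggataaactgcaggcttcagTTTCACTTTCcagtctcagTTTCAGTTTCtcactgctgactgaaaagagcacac
Bst2: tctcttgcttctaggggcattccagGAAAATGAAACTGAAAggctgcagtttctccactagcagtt
They lie at chr4:156200850-156200921 (minus strand), chr19:34583348-34583441 (plus strand), chr19:34640760-34640838 (plus strand) and chr8:71537562-71537627 (minus strand) of GRCm38.p6. Isg15 held 3 matches and each of the others 2. The sole tested rise with a promoter in this list held none, and over all genes that fell the element was in 82 of 1978 promoters (4.15%).

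**Figure D5:**
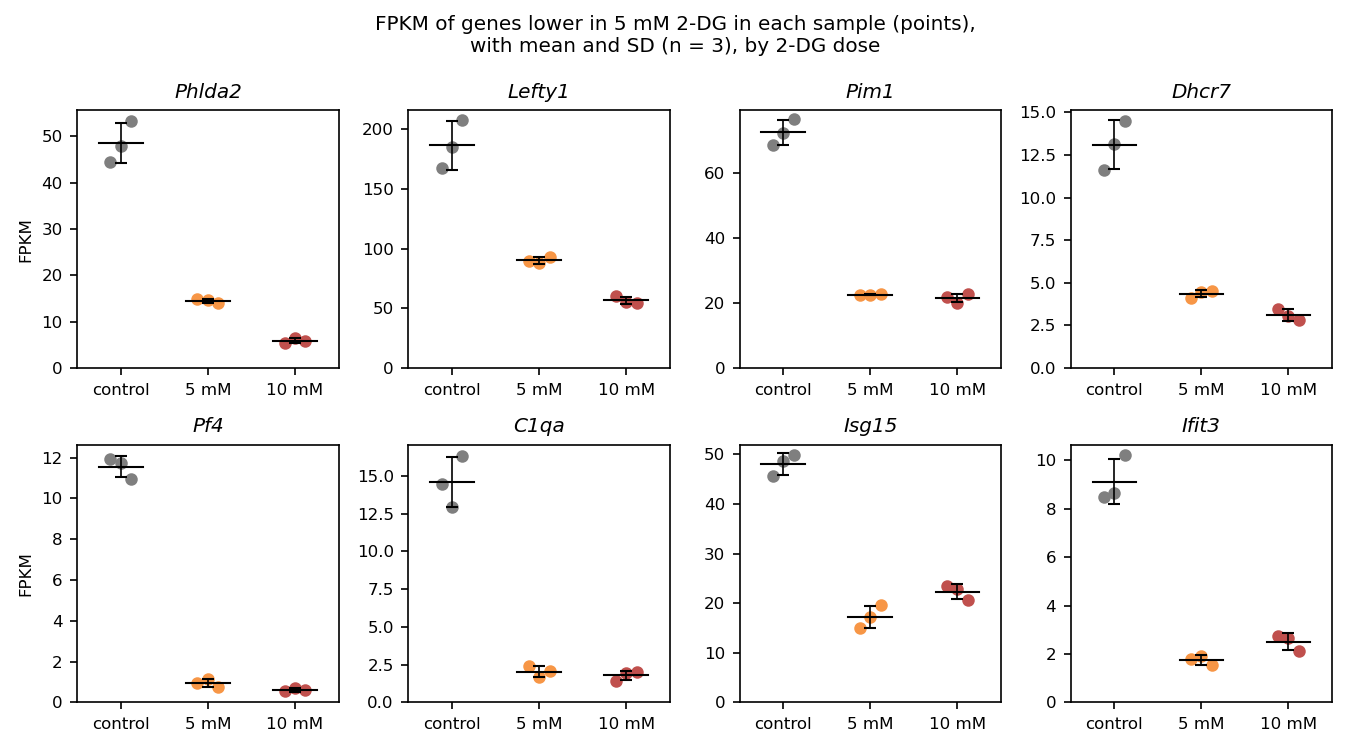
FPKM of 8 genes lower at 5 mM 2-DG, in each control, 5 mM and 10 mM sample (points) with the group mean (line). Phlda2 and Lefty1 are lower again at 10 mM, Pim1 stays near 22 FPKM, and Ifit3 rises from 1.75 to 2.51 FPKM.

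Fibroblast markers as a list changed little, with 3 of 21 higher and 6 lower, against 15.0% and 20.3% of all tested genes. Their summed levels were 2271 to 2393 FPKM in the controls and 2098 to 2263 FPKM at 5 mM. Acta2, smooth muscle actin, was the member with the largest fall, from 567, 577 and 588 FPKM to 365, 374 and 367 FPKM (log2 change -0.65 ± 0.05). Fbln5 and Lox, both of elastic fibres, rose by 0.57 ± 0.04 and 0.42 ± 0.09. Integrins and other adhesion receptors, cadherins among them, were lower in 7 of 12 cases and higher in 2 (1 without control replicate 1 or 5 mM replicate 1 or 3).

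Doubling the dose, a direct comparison of 10 mM with 5 mM, changed 779 of 13284 genes (5.86%), 453 higher (3.41%) and 326 lower (2.45%). With any of the 6 libraries left out the number called was 273 to 469, lowest without replicate 2 of the 10 mM group. At 10 mM 15 of 32 ISR and 17 of 68 UPR members were higher than at 5 mM, and 0 were lower in either list. Trib3, a pseudokinase that ATF4 and CHOP induce, read 56.3, 56.2 and 55.9 FPKM at 5 mM and 85.7, 82.0 and 78.7 FPKM at 10 mM, a log2 difference of 0.54 ± 0.06 (adjusted p = 0.00055). Of the formative genes 10 of 22 were lower at 10 mM than at 5 mM, and of the cholesterol synthesis genes 8 of 20. Phlda2 read 5.46, 6.54 and 5.79 FPKM at 10 mM, below all 5 mM samples (log2 difference -1.16 ± 0.11, adjusted p = 0.00035), and was the only called fall of at least 1 on the log2 scale (0.00753% of the genes). Dnmt3b fell further to 30.0, 29.5 and 32.3 FPKM (-0.70 ± 0.05).

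Other large changes at 5 mM were not followed by a detectable difference at 10 mM. Pim1 differed between the doses by -0.07 ± 0.06, Loxl3 by -0.03 ± 0.05, Nr0b1 by -0.02 ± 0.06, Sox21 by 0.08 ± 0.08, Arrdc4 by 0.04 ± 0.05, Pmm2 by -0.04 ± 0.08 and Psat1 by 0.00 ± 0.05, all with adjusted p of 0.56 or more. A difference that misses the threshold does not show that the doses acted alike. Interferon genes were partly higher at 10 mM than at 5 mM, with 6 of 26 higher and 0 lower. Bst2 read 60.6, 60.2 and 53.6 FPKM at 10 mM, between the 5 mM and the control samples (log2 difference 0.51 ± 0.12 from 5 mM, adjusted p = 0.021), and Irf7, a transcription factor of the interferon response, also rose (0.40 ± 0.07). These genes were picked after their values were seen, apart from their place among the named genes.

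Set directly against 1 nM oligomycin, 5 mM 2-DG differed at 8405 genes (63.3%), 4108 higher (30.9%) and 4297 lower (32.3%). The compounds act on different targets and their doses are not matched, so the values are placed side by side. Pluripotency genes were higher with 2-DG in 25 of 27 cases and lower in 1 (median log2 difference 0.81), for example Klf2 at 99.6 ± 8.48 against 30.9 FPKM. Against the shared controls the median log2 difference of this list was 0.18 with 2-DG and -0.70 with oligomycin. Interferon genes were lower with 2-DG in 23 of 26 cases, and their median against control was -0.37 with 2-DG and 0.48 with oligomycin. Markers of other cell types differed too. All 21 tested fibroblast markers were lower with 2-DG (median -0.86), as were 19 of 20 macrophage markers, with 0 higher in either list. The summed fibroblast level was 2098 to 2263 FPKM with 2-DG and 5153 to 5412 FPKM with oligomycin. The part of the cell mixture in the pluripotency and interferon differences was not tested. The UPR list was divided, 27 of 68 higher and 25 lower; Hspa5 read 404 ± 15.9 FPKM with 2-DG and 214 FPKM with oligomycin (log2 difference 0.92 ± 0.07), close to its control level of 213 FPKM. ISR genes leaned the other way, 18 of 32 lower with 2-DG and 7 higher (medians against control 0.34 with 2-DG and 0.755 with oligomycin), and Ddit3 read 19.7 ± 0.313 against 39.7 FPKM (-0.98 ± 0.07). Atf4 differed by 0.15 (adjusted p = 0.085). Phlda2 stood at 14.5 ± 0.381 and 16.6 FPKM (-0.18, adjusted p = 0.18).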

How the data were processed

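The authors' deposited table held 1 FPKM value per gene and sample, and counts were not used. Bowtie2 2.2.3, HISAT2 2.1.0, HTSeq 0.6.0 and GRCm38 are listed, per the submitters' processing notes, but what each did is not; the counting's strand setting and annotation are not given in the sources used here. Of 32152 genes, 13284 that reached 1 FPKM in 3 or more of the 15 samples were tested, and 26 symbols that spreadsheet software had turned into dates were restored by identifier. Depth came from the value steps, which were whole numbers of reads within 0.05 for 99.2% to 99.5% of the values up to 20 reads.

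Values were analysed as log2(FPKM + 1), on which changes of weakly expressed genes come out too small. The model, in limma 3.58.1 (R 4.3.3, eBayes with a trend), had a mean for each group and took in all 15 samples. Its two-sided test was used with Benjamini-Hochberg adjustment over all tested genes and a threshold of 0.05. The fit was tested on simulated counts that lacked the exon length trend of the controls, so nothing about these data was concluded from it. Errors of FPKM values are SD over 3 samples and errors of log2 changes are SE from the model. Python 3.11.15 was used for tables, motif searches and plots.

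The comparison, the members and the 46 gene lists were chosen with earlier results of these data known; some genes stand in several lists. Named genes were the 15 largest rises and falls past the threshold with at least 5 FPKM in either group and no overlap between groups, up to 6 called members with the largest changes of each list, and a set of pathway genes whatever their values. Other genes named were chosen after their values were seen, mostly as holders of a motif or as sensors and regulators of a list. Alternatives changed the pseudocount to 0.1, the filter (none, or 5 FPKM), the scaling (median ratio or quantile), the samples in the fit, a replicate block, and left out each library in turn. Some genes of the lists are not reported here by name.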

Additional observations from a re-analysis of the deposited data

How the results depend on the processing

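No gene called at 5 mM against control changed sign under any alternative. The filters, the fit of the compared groups and the replicate block leave the log2 change as it was. Only the other alternatives could therefore change a sign. The number called was 4625 with a pseudocount of 0.1, 4586 without a filter, 4636 with median ratio scaling, 4729 with quantile normalization and 4854 with only the compared groups in the fit, against 4686; with a library left out it was 3770 to 4028. A filter of 5 FPKM left 8553 genes and 1726 lower calls against 2696; lower calls then numbered 2772 instead of 4297 for 5 mM 2-DG against 1 nM oligomycin and 2354 instead of 3556 for 10 mM against control. For 10 mM against 5 mM, leaving out a library gave 273 to 469 genes called, 155 to 267 of them higher and 118 to 202 lower, against 779, 453 and 326. Of the 268 named genes called, 242 were called the same way in each alternative in which they were tested (Gapdh and Cdkn1a were not). Gfpt1 passed with a pseudocount of 0.1 (adjusted p = 0.0482), after quantile normalization (0.0444) and with only the compared groups in the fit (0.0465). Lists of genes with low values depended on the filter: mesoderm genes called lower were 11 without one and 0 at 5 FPKM, against 7. List counts at 5 FPKM cover only the members that reached that filter, so a smaller count can reflect genes no longer tested.

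With the replicate block, 4463 genes were called at 5 mM against control and 597 at 10 mM against 5 mM. Deviations of same-numbered control and 5 mM samples from their group means correlated at 0.056, 0.007 and 0.025, and of 5 mM and 10 mM samples at 0.057, 0.074 and -0.114, so the numbers were not taken to pair the samples.

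Promoters were at hand for 9378 of the tested genes, and motif shares hold for those only. FPKM values are relative within a sample, so a change of total RNA per cell would not show.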

Other observations

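Some genes outside the comparisons above moved at 5 mM 2-DG. The counts below stand against 15.0% higher and 20.3% lower over all tested genes. Antioxidant genes of the NRF2 list were higher in 6 of 26 cases and lower in 2 (1 without control replicate 1 or 2 or 5 mM replicate 2), with Gstm1, a glutathione transferase, rising from 28.8 ± 1.13 to 48.0 ± 0.929 FPKM (SD, n = 3), and Sod2, the mitochondrial superoxide dismutase, from 33.0 ± 1.36 to 49.0 ± 2.05 FPKM, while Txnrd1, thioredoxin reductase, changed by -0.28 ± 0.04 on the log2 scale. Cytosolic heat shock genes were higher in 2 of 20 cases (4 after median ratio or quantile scaling) and lower in 2 (0 without control replicate 2 or 3 or 5 mM replicate 1 or 3), with Cryab, a small heat shock protein, at 0.39 ± 0.09. Proteasome subunits were lower in 8 of 31 cases and higher in 0, each by at most 0.35 on the log2 scale, and 3 to 5 were called when any library but 5 mM replicate 2 was left out. Among TCA cycle and pyruvate dehydrogenase genes 11 of 32 were lower and 5 higher (8 after median ratio scaling, 2 without control replicate 1 or 5 mM replicate 2, 3 without control replicate 2 or 5 mM replicate 3). Idh2, which makes NADPH in mitochondria, rose by 0.51 ± 0.06, and Idh3a, of the NAD-dependent enzyme, changed by -0.49 ± 0.07. Among trophectoderm genes 4 of 16 were higher and 7 lower (4 under a filter of 5 FPKM); Rhox6 rose 2.37 times and Rhox9 2.11 times, and these close paralogs may share reads. Over chromosomes, the median log2 change ranged from -0.058 to 0.003 on the nuclear chromosomes.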
